A study of Rattus norvegicus with 12 samples.

Results

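The platelet-derived growth factors (PDGF) and their receptors were followed in the lungs of rats with monocrotaline (MCT) pulmonary hypertension. The genes were taken by name: the ligands Pdgfa, Pdgfb, Pdgfc and Pdgfd and the receptors Pdgfra and Pdgfrb. All 6 were found, each with 1 gene ID, among the 16957 genes listed in all 3 deposited tables, and all 6 passed the filter on low counts in each comparison. Lung RNA was sequenced from 12 rats, 1 library per rat, with 3 rats in each of 4 groups. The groups received angiotensin II (AngII), TRV023, losartan or phosphate-buffered saline (PBS, vehicle), each by osmotic minipump, and every rat, vehicle rats included, had been given MCT. The labels give the age as 9 weeks, and the study's methods give male Sprague-Dawley rats. The methods state a single injection of MCT at 60 mg/kg, AngII at 1 mg/kg/day, TRV023 at 10 µg/kg/min and losartan at 10 mg/kg/day. For histology and pressure measurements, pumps ran for 2 weeks from 1 week after MCT, whereas no timing is given for the lungs that were sequenced. MCT is a plant toxin that injures the pulmonary endothelium, and lungs without MCT were not analysed here. AngII is the full agonist of the angiotensin II type 1 receptor (AT1R), TRV023 is a peptide agonist of AT1R that is biased to β-arrestin, and losartan blocks AT1R.

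PDGF ligands are secreted as dimers. PDGF-A and PDGF-B are cut by furin-like proteases inside the cell, whereas PDGF-C and PDGF-D leave the cell with an N-terminal CUB domain that must be removed by extracellular proteases before they bind. PDGFRα binds dimers of the A, B and C chains, and PDGFRβ binds dimers of the B and D chains. A bound receptor pair phosphorylates itself and recruits Src kinases, phosphatidylinositol 3-kinase, phospholipase Cγ and the Grb2-Sos-Ras-ERK cascade. In the lung, PDGFRα marks mesenchymal fibroblasts and PDGFRβ marks pericytes and vascular smooth muscle cells, while endothelial cells and platelets are known sources of PDGF-B and epithelial cells of PDGF-A. PDGF is a classic growth signal of pulmonary artery muscle in pulmonary hypertension.

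In the coordinates of the deposited tables, whose build is not named, each gene lies on its own chromosome. Pdgfa (ENSRNOG00000001312) is on the plus strand of chromosome 12 at 19727664 to 19748066 and Pdgfb (ENSRNOG00000017197) on the minus strand of chromosome 7 at 121205506 to 121223140. Pdgfc (ENSRNOG00000010695) is on the plus strand of chromosome 2 at 199362291 to 199537365 and Pdgfd (ENSRNOG00000029148) on the plus strand of chromosome 8 at 4454376 to 4684425. Each receptor gene lies beside a relative in the class III receptor tyrosine kinase family. Pdgfra (ENSRNOG00000002244, chromosome 14, minus strand, 35356435 to 35409311) is 377088 bases from Kit, the stem cell factor receptor. Pdgfrb (ENSRNOG00000018461, chromosome 18, plus strand, 55596758 to 55637692) is 25207 bases from Csf1r, the receptor of macrophage colony-stimulating factor. Pdgfd and Pdgfc span 230050 and 175075 bases, against 17635 to 52877 bases for the other members.

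Promoter sequences from RefSeq (GRCr8, a build other than that of the tables) were matched by symbol for 5 of the 6 members. The windows of 300 bases around the start sites of Pdgfa and Pdgfb are shown because these genes gave the most abundant ligand transcripts in these lungs, and that of Pdgfd because it holds the same motif at the other end of the range of levels. Capitals mark the GC box GGGCGG, the core of Sp1-type sites, read here on the opposite strand as its reverse complement.
Pdgfa, chr12:20759116-20759415, plus strand: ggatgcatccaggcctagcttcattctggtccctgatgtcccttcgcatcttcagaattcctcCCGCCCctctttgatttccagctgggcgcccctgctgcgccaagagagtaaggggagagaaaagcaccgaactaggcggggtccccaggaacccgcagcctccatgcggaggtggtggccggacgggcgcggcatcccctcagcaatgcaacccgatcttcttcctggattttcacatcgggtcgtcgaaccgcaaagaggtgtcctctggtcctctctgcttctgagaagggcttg
Pdgfb, chr7:113438294-113438593, minus strand: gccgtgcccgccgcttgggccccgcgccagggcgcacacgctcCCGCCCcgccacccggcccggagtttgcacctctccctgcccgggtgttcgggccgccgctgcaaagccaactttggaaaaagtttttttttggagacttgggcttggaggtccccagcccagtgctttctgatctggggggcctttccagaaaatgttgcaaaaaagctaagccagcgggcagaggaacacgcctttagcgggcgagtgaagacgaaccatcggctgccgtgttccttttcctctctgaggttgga
Pdgfd, chr8:11773258-11773557, plus strand: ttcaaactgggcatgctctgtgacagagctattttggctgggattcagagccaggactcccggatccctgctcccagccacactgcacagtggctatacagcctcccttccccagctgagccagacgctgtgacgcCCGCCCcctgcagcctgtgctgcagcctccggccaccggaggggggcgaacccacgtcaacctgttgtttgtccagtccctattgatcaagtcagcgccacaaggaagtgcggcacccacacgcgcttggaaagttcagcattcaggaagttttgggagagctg
On either strand the GC box was found in 3 of the 5 windows, those of Pdgfa, Pdgfb and Pdgfd, and in 33.1% of all 33469 promoters of the same length. Its first base lay 187 bases before the start site in Pdgfa, 207 bases before it in Pdgfb and 114 bases before it in Pdgfd. The windows of Pdgfc and Pdgfra did not hold these letters. GCGGGGGCG, the core of Egr1 sites, which overlaps the GC box where its letters run on, and TATAAA, the TATA box, were in none of the 5 windows and in 2.73% and 14.2% of all promoters. These matches are a description of the windows, and RNA levels do not measure what binds there.

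Counted reads per library were 17240865 to 18744724 with AngII, 16106337 to 20096877 with TRV023, 17192919 to 19792739 with losartan and 19281315 to 20082784 with vehicle. The members had from 38 to 4791 counts in a library, the fewest for Pdgfc and the most for Pdgfra. Levels are given in FPKM, fragments counted per length of transcript and per library total, so that levels can be compared between genes. The tissue label was checked against 12 genes of lung epithelium, whose summed level was 24467 to 53927 FPKM across the libraries. The 12 endothelial genes summed to 1351 to 2538 FPKM and the 16 fibroblast genes to 1682 to 3081 FPKM. Of the 12 smooth muscle genes 11 were measured, and Acta2 was not analysed here. In whole lung, fewer cells of a type and less RNA per cell cannot be told apart.

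PDGF expression in these lungs was dominated by the A and B chains. Over the 12 libraries Pdgfb averaged 72.2 ± 21.1 FPKM and Pdgfa 60.9 ± 15 FPKM (SD, n = 12), the receptors Pdgfrb 35 ± 4.45 FPKM and Pdgfra 22.7 ± 6.37 FPKM, and the CUB domain ligands Pdgfc 3.86 ± 1.4 FPKM and Pdgfd 3.64 ± 1.51 FPKM. The lengths behind the FPKM of Pdgfa and Pdgfd are shorter than those the tables list, 1211 against 1351 bases and 3287 against 3721 bases, and at the listed lengths their means would be 54.6 and 3.21 FPKM. Pdgfa and Pdgfb together made up 91.1% to 95.9% of the summed ligand FPKM of a library. The summed ligand FPKM exceeded the summed receptor FPKM in each library, by 2.27-fold to 3.59-fold with AngII, 1.56-fold to 2.86-fold with TRV023, 1.68-fold to 4.02-fold with losartan and 1.52-fold to 2.82-fold with vehicle.

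The order of the levels was Pdgfb, Pdgfa, Pdgfrb, Pdgfra, Pdgfc, Pdgfd in 7 of the 12 libraries, and the other 5 differed only within the pair of A and B chains or the pair of CUB domain ligands. Each neighbour was compared by a two-sided exact sign-flip permutation test over the 12 libraries on log2(FPKM + 0.1), with Benjamini-Hochberg adjustment over the 5 pairs. Pdgfa exceeded Pdgfrb by 0.77, Pdgfrb exceeded Pdgfra by 0.66 and Pdgfra exceeded Pdgfc by 2.57 on the log2 scale, each in 12 of 12 libraries (exact permutation p = 0.000488, the smallest the test can give, adjusted p = 0.000814). Pdgfb exceeded Pdgfa by 0.22 in 8 of 12 libraries (adjusted exact permutation p = 0.0916), a difference that did not exceed the spread between rats. It passed at an adjusted exact permutation p = 0.033 without Los_964. It also passed at an adjusted exact permutation p of 0.00793 when FPKM was rescaled to the gene length listed in the tables. Pdgfc exceeded Pdgfd by 0.08 in 9 of 12 libraries (adjusted exact permutation p = 0.78).

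**Figure D1:**
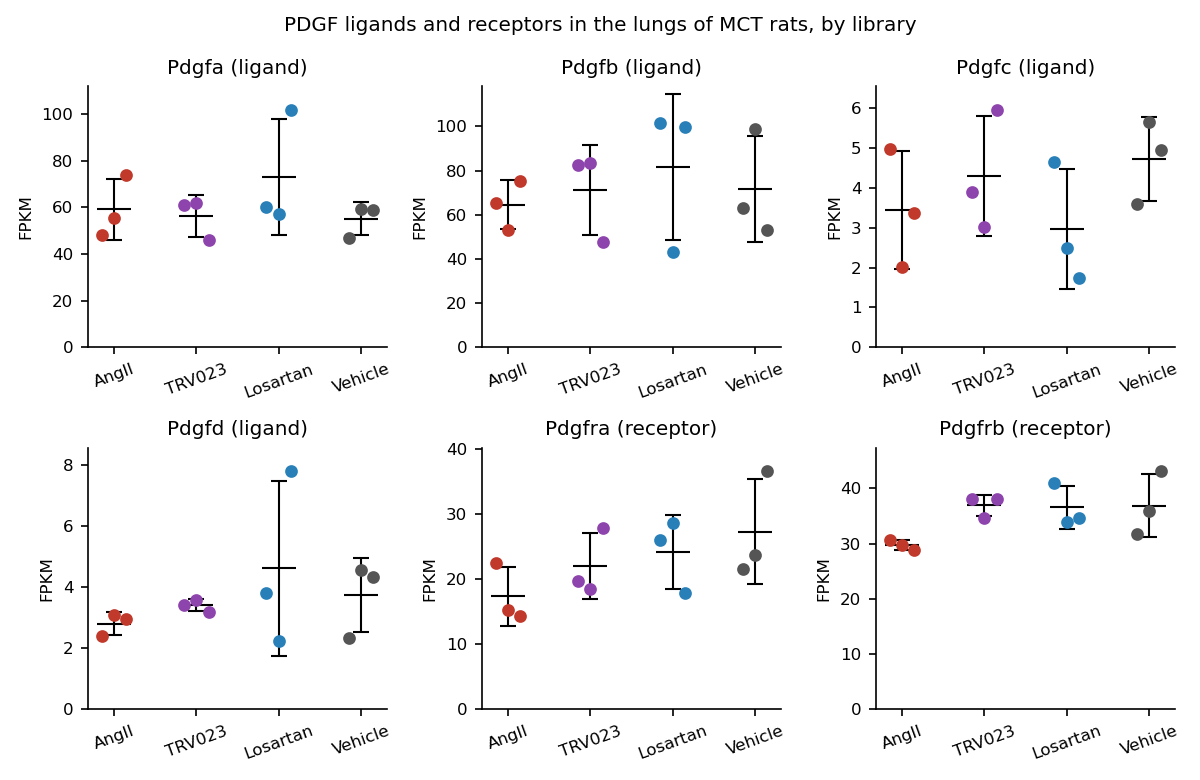
FPKM of the 6 PDGF genes (vertical axes, linear, from 0) in the AngII, TRV023, Losartan and Vehicle groups; each point is a rat and the bars are the mean and SD of 3 rats. The groups overlapped in most panels. The 3 AngII points of Pdgfrb, at 28.9 to 30.6 FPKM, lay below the other 9 libraries, as did those of 3.22% of all genes. On TMM-scaled log2 CPM they overlapped the vehicle values.

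None of the 6 members was called in any comparison with vehicle at an edgeR adjusted p under 0.05. The share of all genes called was 0.0133% for AngII (2 of 15059), 0.00658% for TRV023 (1 of 15193) and 0% for losartan (0 of 15156). At an unadjusted p under 0.05, 1 member was past the threshold for AngII, against 11.9% of all genes. No member was past it for TRV023 or losartan, against 5.56% and 1.65% of all genes. DESeq2 also called 0 of the 6 in each comparison, where it called 1.17% of all genes for AngII (209 of 17808), 0.615% for TRV023 (114 of 18539) and 0.0382% for losartan (7 of 18325). The members' median log2 fold change was -0.23 for AngII, -0.07 for TRV023 and 0.12 for losartan, beside -0.02, -0.0016 and 0.01 for all genes tested. Because vehicle rats are shared, the 3 comparisons are not independent of each other.

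Pdgfra, the receptor of A, B and C chains, was the member with the smallest p. It had 22.5, 15.2 and 14.3 FPKM in AngII lungs, 19.6, 18.5 and 27.8 FPKM in TRV023 lungs and 26, 28.7 and 17.8 FPKM in losartan lungs, against 21.6, 23.8 and 36.6 FPKM in vehicle lungs. Both of the lowest values of the series were from AngII rats and the highest was from vehicle rat Veh_963, but Ang2_922 lay within the vehicle range. With AngII the log2 fold change was -0.53 (SE 0.23, interval -1.06 to -0.01, edgeR unadjusted p = 0.0467, adjusted p = 0.416). Without Veh_963 it was -0.26 (edgeR adjusted p = 0.649), and between -0.71 and -0.41 without any other library. It was -0.37 both with the number series of the animals as a covariate and with each library's gene length trend removed. The covariate sets Veh_963, Los_964 and Los_965 apart. None of these is an AngII or TRV023 rat, so the covariate is not independent of group. The log2 fold change was -0.32 for TRV023 (interval -0.87 to 0.24, edgeR adjusted p = 0.993), where leaving out Veh_963 gave -0.037 and leaving out Trv_930 gave -0.52. It was -0.12 for losartan (interval -0.74 to 0.50, edgeR adjusted p = 1.0), and then 0.15 without Veh_963 and 0.06 without Los_965.

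The library Veh_963 also stood apart in mesenchymal markers. Its smooth muscle genes summed to 2879 FPKM and its fibroblast genes to 3081 FPKM. Across AngII lungs the smooth muscle sum was 729 to 1144 FPKM, against 808 to 2879 FPKM in vehicle lungs. The fibroblast sum was 1964 to 2223 FPKM in AngII lungs, against 2333 to 3081 FPKM in vehicle lungs. The mean TMM-scaled log2 CPM of the fibroblast genes overlapped, at 6.53 to 6.62 in AngII lungs and 6.42 to 7.26 in vehicle lungs. The part of these markers in the Pdgfra values was not tested.

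Pdgfrb, the receptor of B and D chains, varied least among the members. It had 30.6, 29.8 and 28.9 FPKM in AngII lungs, 38.1, 34.7 and 38.1 FPKM in TRV023 lungs and 41, 34 and 34.7 FPKM in losartan lungs, against 31.7, 35.9 and 43.1 FPKM in vehicle lungs. The 3 AngII values lay below the vehicle values, as did 16.2% of all genes, and below those of all 9 other libraries, as did 3.22%. The log2 fold change with AngII was -0.18 (SE 0.141, interval -0.50 to 0.14, edgeR adjusted p = 0.61), and it was -0.046 without Veh_963 and -0.28 without Veh_923. The 12 pericyte genes summed to 671 to 696 FPKM in AngII lungs, against 719 to 893 FPKM in vehicle lungs, while their mean log2 CPM overlapped, at 5.75 to 5.86 in AngII lungs and 5.79 to 6.28 in vehicle lungs. Among them Rgs5, a pericyte regulator of G protein signalling chosen after its values were seen, had 20.2 to 23.7 FPKM in AngII lungs, against 44.3 to 148 FPKM in vehicle lungs (log2 fold change -1.77, edgeR adjusted p = 0.32). It had the smallest p of the list, and its AngII values lay below all vehicle values, as for 16.2% of all genes. The list as a whole did not follow Rgs5. Of the 12 pericyte genes 6 had a log2 fold change above 0, and the median of the 12 was -0.03, beside -0.02 for all genes. The part of these markers in the Pdgfrb values was not tested. On TMM-scaled log2 CPM the AngII values of Pdgfrb, 7.38 to 7.47, overlapped the vehicle values, 7.35 to 7.81, and the TRV023 values, 7.45 to 7.67, and lay below the losartan values only, 7.54 to 7.68. On that scale 5.73% of all genes had their AngII values below the losartan values. Scaling by library totals in place of TMM shifted all genes by a median of -0.13 for AngII on the log2 scale. For TRV023 the log2 fold change was 0.00 (interval -0.34 to 0.34) and for losartan 0.03 (interval -0.33 to 0.39), so the widest of these intervals excludes a change of 0.5 or more on the log2 scale in either direction with TRV023 or losartan. The SD of Pdgfrb over the 12 libraries was 0.142 on the log2 CPM scale, beside a median of 0.335 over all genes, and 7.5% of genes had a smaller one.

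Among the ligands, Pdgfa, the A chain, was highest in a losartan rat. It had 48.1, 55.7 and 73.8 FPKM in AngII lungs, 61.2, 61.8 and 46 FPKM in TRV023 lungs and 60.1, 57.3 and 102 FPKM in losartan lungs, against 47, 59.2 and 59.1 FPKM in vehicle lungs. The groups overlapped, and the mean of the losartan rats rested on Los_965. The log2 fold change with losartan was 0.46 (interval -0.10 to 1.01, edgeR unadjusted p = 0.0926, adjusted p = 1.0), and without Los_965 it was 0.14. It was 0.24 for AngII (edgeR adjusted p = 0.612; 0.053 without Ang2_933, 0.14 without Veh_923 and 0.41 without Ang2_922) and 0.03 for TRV023 (edgeR adjusted p = 0.994).

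Pdgfb, the B chain, which binds both receptors, was the most abundant member and varied widely within groups. It had 65.3, 52.9 and 75.1 FPKM in AngII lungs, 82.4, 83.6 and 47.5 FPKM in TRV023 lungs and 102, 43.2 and 99.8 FPKM in losartan lungs, against 62.9, 98.9 and 53.1 FPKM in vehicle lungs. In the TRV023 and losartan groups 2 rats were high and 1 low, and in the vehicle group 1 was high. The log2 fold changes were -0.02 for AngII (interval -0.55 to 0.51), -0.01 for TRV023 (interval -0.66 to 0.63) and 0.21 for losartan (interval -0.53 to 0.96), with edgeR adjusted p between 0.977 and 1.0. Without Veh_924, the vehicle rat with the highest level, that of AngII was 0.28 and that of TRV023 was 0.30.

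Pdgfc, a CUB domain ligand of PDGFRα, was among the 2 low members. On log2 CPM it had the largest SD of the 6 over the 12 libraries, and in FPKM Pdgfd varied more. It had 4.97, 2.01 and 3.38 FPKM in AngII lungs, 3.89, 3.03 and 5.97 FPKM in TRV023 lungs and 4.66, 2.5 and 1.75 FPKM in losartan lungs, against 3.59, 5.67 and 4.95 FPKM in vehicle lungs. The lowest values were from Los_965 and Ang2_931, and each drug group reached into the vehicle range. The log2 fold changes were -0.34 for AngII (interval -1.24 to 0.57), -0.14 for TRV023 (interval -0.94 to 0.67) and -0.64 for losartan (interval -1.60 to 0.31, edgeR unadjusted p = 0.157, adjusted p = 1.0). The value for losartan was -1.04 without Los_925 and -0.38 without Los_965. That for AngII was -0.64 without Ang2_922, -0.51 without Veh_923, -0.19 without Veh_924 and -0.076 without Ang2_931. It had 38 to 125 counts per library, and its intervals for AngII and TRV023 were the widest of the members.

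Pdgfd, the CUB domain ligand of PDGFRβ, was highest in the same losartan rat as Pdgfa. It had 2.39, 3.07 and 2.95 FPKM in AngII lungs, 3.42, 3.59 and 3.19 FPKM in TRV023 lungs and 3.81, 2.21 and 7.81 FPKM in losartan lungs, against 2.33, 4.54 and 4.33 FPKM in vehicle lungs. With losartan the log2 fold change was 0.34 (interval -0.70 to 1.39, edgeR adjusted p = 1.0), and without Los_965 it was -0.28. For AngII it was -0.28 (interval -0.97 to 0.41, edgeR adjusted p = 0.714), and between -0.53 without Veh_923 and -0.11 without Veh_924, and for TRV023 -0.14 (interval -0.77 to 0.49, edgeR adjusted p = 0.993). Los_965 had the highest Pdgfa and Pdgfd and the lowest Pdgfc of the series. Its summed level was 1682 FPKM over 16 of 16 fibroblast genes, 874 FPKM over 12 of 13 macrophage genes and 222 FPKM over 12 of 12 other leukocyte genes, each the lowest of the losartan group. On mean TMM-scaled log2 CPM, over 11 of these other leukocyte genes, Los_964 was lower, at 3.55 against 3.59 in Los_965. Other lists went both ways in summed FPKM. Los_965 had the highest pericyte and platelet sums of the losartan group, 842 and 216 FPKM, and the lowest mesothelial sum, 199 FPKM. Its epithelial, endothelial and smooth muscle sums lay between those of the other losartan rats. The fibroblast sum was 1682 to 2410 FPKM in losartan lungs, against 2333 to 3081 FPKM in vehicle lungs. The leukocyte sum was 222 to 716 FPKM in losartan lungs, against 376 to 562 FPKM in vehicle lungs. The part of these markers in the PDGF values of Los_965 was not tested.

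**Figure D2:**
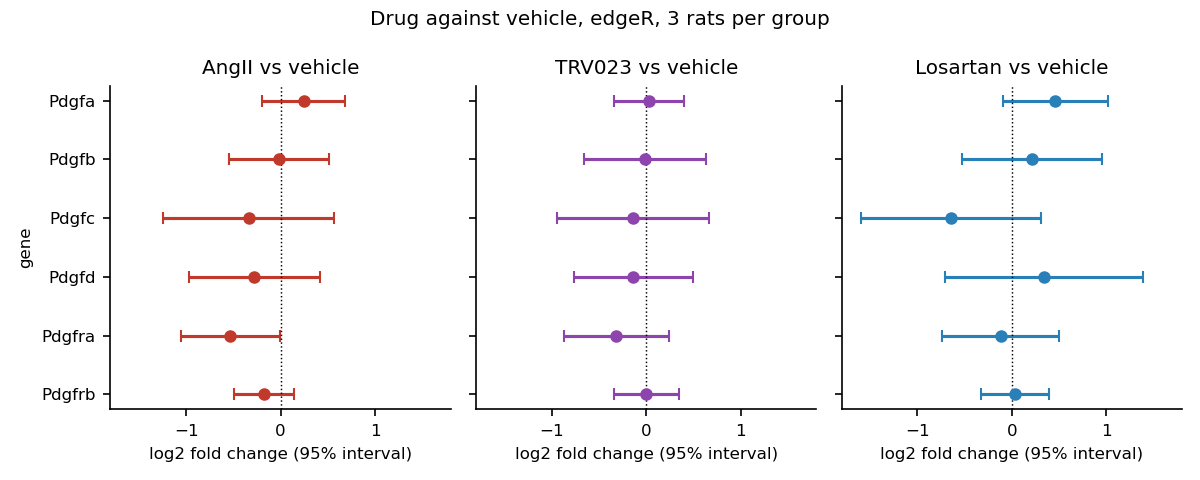
Log2 fold changes of the 6 genes with AngII, TRV023 and Losartan against vehicle (horizontal axes; points are edgeR estimates, bars are 95% intervals, 3 rats per group). Only the interval of Pdgfra with AngII, -1.06 to -0.01, leaves out 0, and it does so without adjustment for the number of genes.

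AngII, TRV023 and losartan were compared with each other in a fit of all 12 libraries and 15662 genes, to set the full agonist beside the biased agonist and the blocker. The doses differ between the drugs. None of the 6 members was called in AngII against TRV023, AngII against losartan or TRV023 against losartan, where edgeR called 0% of all genes each time, and none had an unadjusted p under 0.05, as 10.9%, 9.18% and 4.55% of all genes did. DESeq2 called 0 members in each, and 1.28%, 0.603% and 0.0769% of all genes. The smallest member p in AngII against TRV023 was that of Pdgfrb, at -0.17 (interval -0.46 to 0.11, edgeR unadjusted p = 0.212, adjusted p = 0.665), whose AngII values lay below all TRV023 values in FPKM, as did those of 14.6% of all genes. Pdgfd, at -0.13 (interval -0.96 to 0.70), was the other member whose AngII values lay below all TRV023 values in FPKM. On TMM-scaled log2 CPM both members overlapped, and Pdgfd was higher in Ang2_931, at 3.497, than in any TRV023 lung, the highest being Trv_917 at 3.494. In AngII against losartan the smallest was that of Pdgfd, at -0.60 (interval -1.43 to 0.22, edgeR unadjusted p = 0.139, adjusted p = 0.624), which was 0.02 without Los_965. Pdgfrb was at -0.20 (interval -0.48 to 0.09) there, and its AngII values lay below all losartan values in FPKM, as did those of 8.43% of all genes. In TRV023 against losartan the smallest was that of Pdgfa, at -0.42 (interval -0.94 to 0.09, edgeR unadjusted p = 0.101, adjusted p = 0.998).

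The genes around the receptors were described with 5 lists, of ligand processing and co-receptors, proximal signalling, negative regulators, early response genes of PDGF-stimulated cells and relatives of the family. Together they hold 80 gene symbols, Figf and Vegfd being names of the same gene, and 79 were tested, and edgeR called 0 in each comparison with vehicle at an adjusted p under 0.05. At an unadjusted p under 0.05 there were 5 for AngII, 5 for TRV023 and 0 for losartan, that is 6.33%, 6.33% and 0% of the 79, beside the shares of all genes given above. DESeq2 called 1 of them for AngII, Rasa1, and 0 for TRV023 and losartan. This 1 of 79 is near the share of all genes that DESeq2 called for AngII, 1.17%.

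With AngII, Rasa1, the Ras GTPase-activating protein that binds PDGFRβ, averaged 8.38 ± 1.09 FPKM in AngII lungs and 13.9 ± 0.853 FPKM in vehicle lungs (SD, n = 3 each). Its highest AngII value, 9.56 FPKM, was under its lowest vehicle value, 13.2 FPKM. The log2 fold change was -0.60 (SE 0.139, edgeR unadjusted p = 0.00207, adjusted p = 0.295), and -0.59 in DESeq2 (adjusted p = 0.0404). Pik3r1, the p85α regulatory subunit of phosphatidylinositol 3-kinase, averaged 16.6 ± 3.6 FPKM in AngII lungs and 26.2 ± 3.47 FPKM in vehicle lungs, at a log2 fold change of -0.53 (edgeR adjusted p = 0.372). Nrp1, a co-receptor of PDGF and VEGF ligands, averaged 12.5 ± 5.39 FPKM in AngII lungs and 22.2 ± 3.56 FPKM in vehicle lungs, at -0.71 (edgeR adjusted p = 0.381). For these 3 genes, picked by their p, no AngII value reached the vehicle range in FPKM, as held for 16.2% of all genes. Vegfb, a VEGF family ligand, was at 0.40 with all AngII values above vehicle in FPKM, as for 4.83% of all genes (edgeR adjusted p = 0.406), and Flt1, a VEGF receptor, at -0.59 (edgeR adjusted p = 0.424). Map2k2, an ERK-activating kinase chosen after its values were seen, was the fifth gene under an unadjusted p of 0.05, at 0.34 (edgeR adjusted p = 0.416). With each library's gene length trend removed, edgeR called none of the pathway genes at an adjusted p under 0.05. The fold changes of the genes named here are not given for that fit, and the part of gene length in their values was not tested. Of the other genes of the rule, the propeptide convertase gene Pcsk5 and the early response genes Ier2 and Ier3 lay between -0.37 and 0.56.

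With TRV023, Spry2, a feedback inhibitor of receptor tyrosine kinase signalling, averaged 36.4 ± 2.46 FPKM in TRV023 lungs and 25.3 ± 1.95 FPKM in vehicle lungs (SD, n = 3 each), at a log2 fold change of 0.52 (SE 0.122, edgeR unadjusted p = 0.00258, adjusted p = 0.538). Figf, which encodes VEGF-D, averaged 21.3 ± 2.05 FPKM in TRV023 lungs and 13.9 ± 1.78 FPKM in vehicle lungs, at 0.61 (edgeR adjusted p = 0.548). The TRV023 values of both genes, picked by their p, lay above all vehicle values in FPKM, as did those of 4.95% of all genes. Grb2, the adaptor that links receptors to Ras, was at 0.32 (edgeR adjusted p = 0.838), also without overlap. Fos, an early response transcription factor, had a mean of 71.2 ± 53.3 FPKM in TRV023 lungs and 23.1 ± 6.83 FPKM in vehicle lungs, at 1.61 (edgeR adjusted p = 0.808), with TRV023 values from 16.9 to 123 FPKM that reached into the vehicle range. Ier2 was at 0.53 (edgeR adjusted p = 0.822). The other genes of the rule, Nrp1, Furin, Pik3r1, Cbl and Csf1r, lay between -0.56 and 0.18. The smallest p for losartan were those of Klf4, at 0.69 (edgeR unadjusted p = 0.0523), and Spry2, at 0.31 (edgeR unadjusted p = 0.059), both with an adjusted p of 1.0. The other genes of the rule, Sphk1, Bgn, Nck1, Hras, Ptpn2, Nr4a1, Flt3 and Flt1, lay between -0.56 and 1.32.

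By list, the median log2 fold change with AngII was 0.00 for ligand processing and co-receptors, 0.00 for proximal signalling, -0.14 for negative regulators, 0.05 for early response genes and -0.28 for family relatives, beside -0.02 for all genes. The summed level of the 10 negative regulators was 186 to 203 FPKM in AngII lungs, against 212 to 236 FPKM in vehicle lungs. Among all genes in FPKM, 16.2% had their AngII values below all vehicle values and 4.83% above. On TMM-scaled log2 CPM the means of these regulators did not overlap but nearly met. They were 4.99 to 5.09 in AngII lungs, against 5.10 to 5.28 in vehicle lungs. On that scale 8.61% of all genes had their AngII values below all vehicle values. Of the relatives, 2 of the 12 measured had a log2 fold change above 0. With TRV023 the medians were 0.12, -0.05, 0.01, 0.18 and -0.02 in the same order, and with losartan -0.10, 0.06, 0.01, 0.10 and 0.01. The early response genes had the widest range with losartan, from -1.13 to 1.32.

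**Figure D3:**
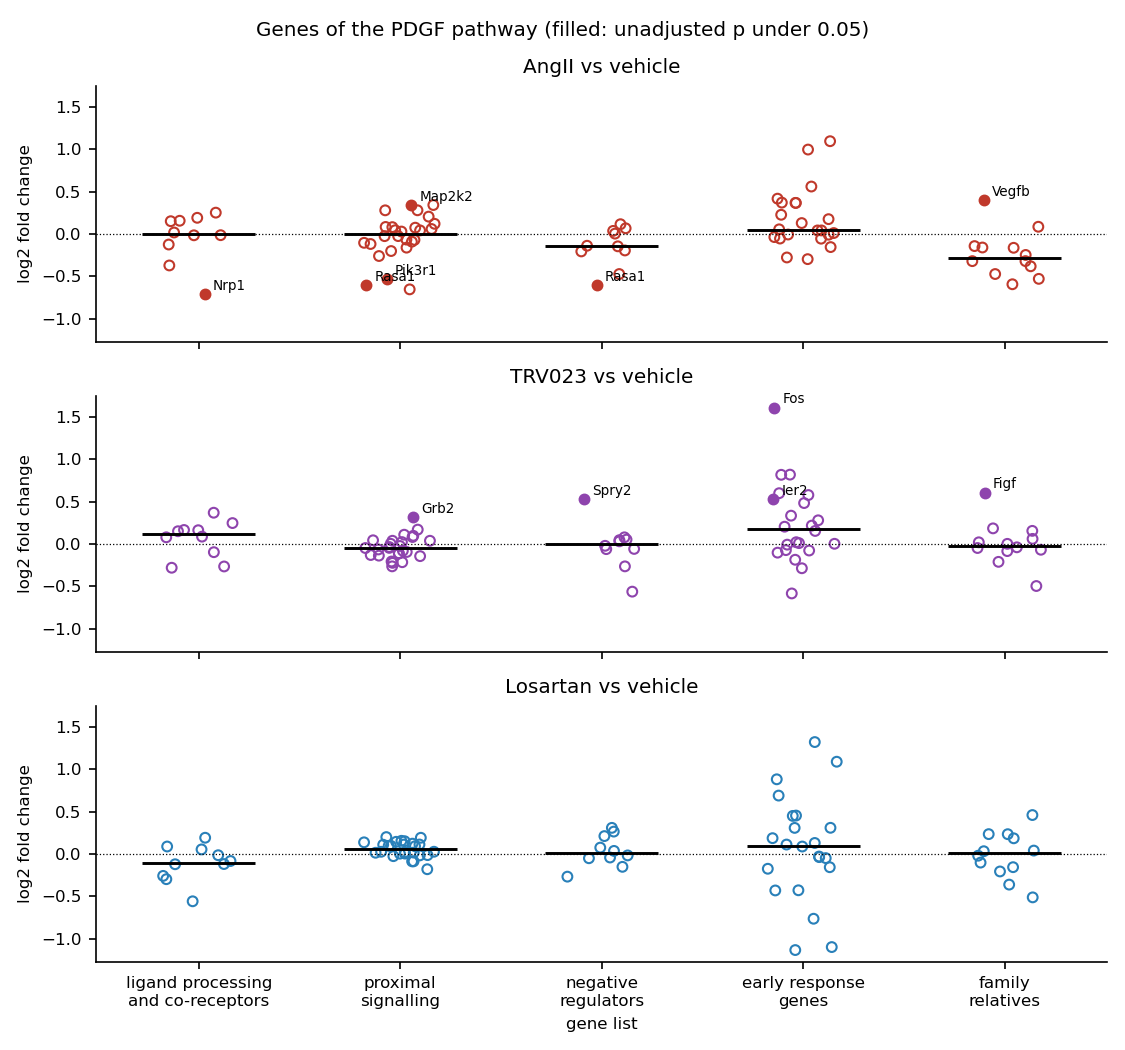
Log2 fold changes (vertical axes) of the genes of 5 PDGF pathway lists with AngII, TRV023 and Losartan against vehicle; each circle is a gene, filled where its unadjusted edgeR p is under 0.05, and black lines are list medians. Rasa1 is in 2 lists and is drawn in both, and no gene passed an adjusted p of 0.05.

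The members were set against each other and against cell markers across the 12 libraries, on TMM-scaled log2 CPM, in 24 relations that share libraries and depth. None passed a Benjamini-Hochberg adjusted permutation p of 0.05 on this scale, whereas 5 passed it on log2(FPKM + 1). Pdgfra and Pdgfrb were higher in the same lungs (Pearson r = 0.69, permutation p = 0.0131, adjusted p = 0.0834; Spearman rho = 0.62, permutation p = 0.0346, adjusted p = 0.343). Without the 2 libraries farthest from the median Pdgfra level, Veh_963 and Los_964, r was 0.46, and over the 9 rats not numbered 96x it was 0.50. Only 3 rats are numbered 96x, Veh_963, Los_964 and Los_965, too few for a value of their own. Los_925 is the only losartan rat among the other 9.

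Pdgfra with the mean of 16 fibroblast genes gave r = 0.67 (permutation p = 0.0112, adjusted p = 0.0834) and rho = 0.45 (permutation p = 0.146, adjusted p = 0.406), but r = 0.17 without the 2 farthest libraries, 0.38 without Veh_963 alone and 0.06 over the 9 rats not numbered 96x, so that the relation rests on those libraries. Pdgfrb with the mean of the smooth muscle genes gave r = 0.71 (permutation p = 0.00582, adjusted p = 0.0834) and rho = 0.55 (permutation p = 0.0661, adjusted p = 0.397), and r = 0.34 without Veh_963 and Veh_923, 0.49 without Veh_963 alone and 0.44 over the 9 rats. Pdgfrb with 12 pericyte genes gave r = 0.58 (permutation p = 0.0502, adjusted p = 0.159) and rho = 0.42 (permutation p = 0.177, adjusted p = 0.406), and r = 0.30 without the same pair and 0.56 over the 9 rats. Both lists of markers were highest together with Pdgfrb in Veh_963.

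**Figure D4:**
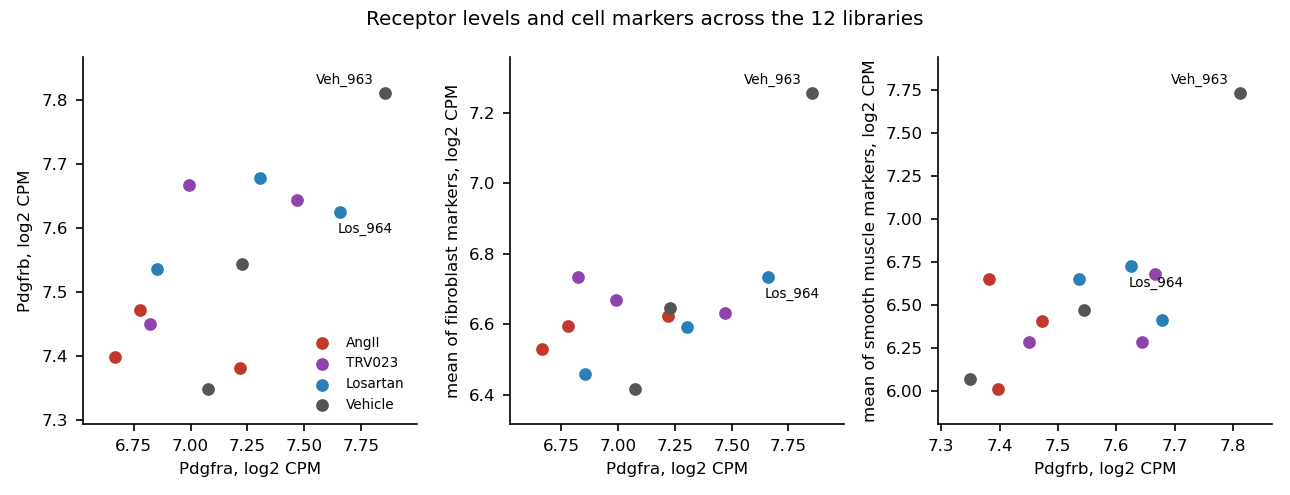
Pdgfrb against Pdgfra, the mean of the fibroblast markers against Pdgfra and the mean of the smooth muscle markers against Pdgfrb (log2 CPM on each axis; points are the 12 libraries, coloured by group). Veh_963 lies at the upper right of each panel, and without it the correlations were 0.52, 0.38 and 0.49.

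Among the ligands, Pdgfa and Pdgfd gave r = 0.71 (permutation p = 0.0154, adjusted p = 0.0834) and rho = 0.36 (permutation p = 0.256, adjusted p = 0.511), and r = 0.45 without Los_965 and Ang2_933. Pdgfa and Pdgfc ran in opposite directions, with r = -0.67 (permutation p = 0.0174, adjusted p = 0.0834) and rho = -0.68 (permutation p = 0.0185, adjusted p = 0.343), and r = -0.52 without the same pair. Over the 9 rats not numbered 96x these were 0.49 and -0.39. Pdgfb and Pdgfa gave r = 0.51 (permutation p = 0.0881, adjusted p = 0.235) and rho = 0.28 (permutation p = 0.378, adjusted p = 0.567), and r = 0.25 without Los_965 and Ang2_933 and 0.55 over the 9 rats. Pdgfb and Pdgfd gave r = 0.55 (permutation p = 0.053, adjusted p = 0.159). Their rho was 0.60 (permutation p = 0.0429, adjusted p = 0.343). Pdgfb and the receptor Pdgfra gave r = -0.58 (permutation p = 0.0512, adjusted p = 0.159). Their rho was -0.41 (permutation p = 0.186, adjusted p = 0.406). Without Trv_930 and Los_964 these r were 0.50 and -0.37, and with group means removed 0.54 and -0.72. Pdgfb with 12 endothelial genes gave r = -0.06 (permutation p = 0.87, adjusted p = 0.908) and rho = 0.16 (permutation p = 0.618, adjusted p = 0.873), and r = 0.62 without Trv_930 and Los_964 and 0.18 over the 9 rats. Pdgfb with the platelet genes gave r = 0.46 (permutation p = 0.134, adjusted p = 0.292) and rho = 0.42 (permutation p = 0.178, adjusted p = 0.406), and r = 0.52 without the same pair and 0.39 over the 9 rats.

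The genes most like each member were found by Pearson r over the 12 libraries among 12292 genes with a mean of at least 1 FPKM, and are given as a description. For Pdgfa they were Zfp865 (r = 0.89), Atf5 (r = 0.89) and Wrnip1 (r = 0.88), and for Pdgfb Stard8 (r = 0.92), Spr (r = 0.92) and Sox7 (r = 0.91). For Pdgfc they were Col3a1 (r = 0.90), which encodes a fibrillar collagen, Ssh2 (r = 0.88) and Isoc1 (r = 0.87), and for Pdgfd Pfkm (r = 0.95), Dock6 (r = 0.91) and Sept7 (r = 0.91). For Pdgfra they were Doc2b (r = 0.90), Socs2 (r = 0.89) and Tpd52l1 (r = 0.88), and for Pdgfrb Aplp2 (r = 0.87), Col8a1 (r = 0.83), which encodes a vascular collagen, and Eapp (r = 0.82). The SD over the 12 libraries on log2 CPM was 0.525 for Pdgfc, 0.477 for Pdgfd, 0.401 for Pdgfb, 0.368 for Pdgfra and 0.331 for Pdgfa, and 70.9%, 66.8%, 59.2%, 54.8% and 49.3% of all genes had a smaller one.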

How the data were processed

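Reads from total lung RNA were aligned to the rat genome by the company that sequenced them. The aligner, the counter, strand use and the build were not given in the sources used here. Counts were deposited as whole numbers of reads for each gene, and FPKM was made by the authors from these counts, a gene length and the library total. The authors' log2 fold changes and p-values, and 18 columns of scaled signal, were not used. The deposited gene length served for 2 alternatives.

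Tests against vehicle were run with edgeR 4.0.16 under R 4.3.3 (filterByExpr, TMM, glmQLFit, glmQLFTest) on 6 libraries at a time, with Benjamini-Hochberg adjustment over all genes tested. Drugs were compared with each other in a fit of all 12. Intervals are 95% intervals from the moderated degrees of freedom. Log2 CPM used a prior count of 2. Correlations used 100000 permutations. Nothing in the labels says that the rats of a group differ in more than animal number, and p-values measure the spread between these rats. The edgeR comparisons with vehicle were also run on simulated counts with known changes, and the outcome is not given here.

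Named genes were the 6 members, up to 2 genes with the smallest p of each pathway list and comparison, and the 3 genes most like each member, without those named by clone, LOC or RGD numbers. A gene that the rule names is not reported here. The members and lists were chosen with earlier results of these data known. Alternatives were DESeq2 1.42.0, limma 3.58.1 (voom, and log2(FPKM + 1) where a gene's mean FPKM was 1 or more), RLE factors, library totals, no filter, at least 10 counts in every library, all 12 libraries, the 96x number series as a covariate, a removed gene length trend (lowess, span 0.3), an adjusted p under 0.1 and each library left out. Order and relations were also run with a pseudocount of 1, TMM-divided FPKM and log2(FPKM + 1). After seeing the data, the listed gene length, the 9 rats not numbered 96x and leaving out Veh_963 were added.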

Additional observations from a re-analysis of the deposited data

How the results depend on the processing

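Counts of members called were 0 under every alternative run. The count of pathway genes called with AngII was 1 in DESeq2, and 0 in edgeR and every other alternative. No paired analysis was possible because the animal numbers are not shared between groups. Of 252 member fold changes under alternatives other than leaving a library out, 6 turned sign, all close to 0. The 252 include those at an adjusted p under 0.1, which keep the fold changes of the main fit and could not turn sign. Pdgfb with AngII was 0.017 in limma-voom, and Pdgfd with TRV023 was 0.022 with the number series as covariate. Pdgfrb with losartan was -0.0071 in limma on log2(FPKM + 1), -0.014 with library totals and -0.00094 with the number series as covariate, and Pdgfrb in TRV023 against losartan was 0.015 with library totals. Of 216 left-out fits, 32 turned sign.

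For AngII against Vehicle the ranges without single libraries were -0.19 to 0.28 for Pdgfb. For TRV023 against Vehicle the ranges without single libraries were -0.072 to 0.15 for Pdgfa, -0.18 to 0.30 for Pdgfb, -0.45 to 0.080 for Pdgfc, -0.38 to 0.031 for Pdgfd and -0.096 to 0.14 for Pdgfrb. For Losartan against Vehicle the ranges without single libraries were -0.28 to 0.65 for Pdgfd, -0.34 to 0.15 for Pdgfra and -0.069 to 0.16 for Pdgfrb. For AngII against TRV023 the ranges without single libraries were -0.22 to 0.14 for Pdgfb, -0.51 to 0.12 for Pdgfc and -0.24 to 0.00075 for Pdgfd. For AngII against Losartan the ranges without single libraries were -0.41 to 0.11 for Pdgfa and -0.91 to 0.016 for Pdgfd. For TRV023 against Losartan the ranges without single libraries were -0.78 to 0.15 for Pdgfd, -0.40 to 0.030 for Pdgfra and -0.063 to 0.042 for Pdgfrb. The mean log2 difference in level ranged from -0.0097 to 0.27 for Pdgfc over Pdgfd.

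On log2(FPKM + 1), r was 0.0081 for Pdgfb with Pdgfc, 0.12 for Pdgfb with Pdgfrb and 0.0048 for Pdgfb with endothelial genes, and 5 relations passed an adjusted permutation p of 0.05, at 0.0409 to 0.0468. Over the 9 rats not numbered 96x, r was 0.045 for Pdgfb with Pdgfc, 0.18 for Pdgfb with Pdgfrb, 0.063 for Pdgfc with Pdgfd and 0.18 for Pdgfb with endothelial genes. Without Veh_963, r was 0.031 for Pdgfa with Pdgfrb, 0.013 for Pdgfb with Pdgfrb and -0.24 for Pdgfd with fibroblast genes. The cause was not tested. With 3 rats per group, the intervals of Pdgfb, Pdgfc, Pdgfd and Pdgfra reach a change of 0.5 or more on the log2 scale in at least 1 direction in each comparison with vehicle.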
